A study of Sorghum bicolor with 8 samples.

Results

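The 8 genes described here are taken to encode enzymes of C4 photosynthesis, and their transcripts were followed in aerial prop roots of sorghum (Sorghum bicolor) at ambient and elevated CO2. They were chosen by identifier as known sorghum enzymes: 3 carbonic anhydrases, the C4 PEP (phosphoenolpyruvate) carboxylase, the NADP-malate dehydrogenase, the C4 NADP-malic enzyme, pyruvate phosphate dikinase and a small subunit of Rubisco. All 8 were found among the 34129 genes of the deposited table, which gives identifiers without names, so the enzyme names rest on the choice of identifiers. Sorghum carries further genes for several of these enzymes, and those were not analysed here.

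Both groups were plants of the cultivar BRS330, grown in soil with 1.5 L of water daily until day 60 after planting and then held at 0.45 L, a reduction of 70%, for 30 days. The ambient group grew at 400 µmol per mol CO2 and the elevated group at 800 µmol per mol, with 4 libraries in each; water deficit was thus common to all plants and no well-watered group was used here. RNA came from 100 mg portions of ground prop root, which the study's title calls green. The labels do not say whether libraries came from separate plants or from pools, and without gene names the tissue label could not be checked against marker genes.

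In C4 leaves, carbonic anhydrase turns CO2 into bicarbonate in the mesophyll and PEP carboxylase fixes that bicarbonate into a C4 acid. NADP-malate dehydrogenase reduces the acid to malate, which moves to the bundle sheath, where NADP-malic enzyme releases CO2 next to Rubisco. Pyruvate phosphate dikinase then regenerates PEP for the next turn. Several of these enzymes belong to families whose other members serve basic metabolism in roots and other tissues that do not photosynthesise.

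By level, the enzymes fell into a higher and a scarce set. Levels are in FPKM (sequenced fragments per kilobase of transcript, relative to the size of the library), so they can be set side by side between genes. The authors' table holds 1 pooled value per group and no column of single libraries, so levels carry no SD and their order has no test. Of the 8 transcripts, 5 exceeded 20 FPKM in both groups: Rubisco small subunit, pyruvate phosphate dikinase, NADP-malate dehydrogenase and 2 carbonic anhydrases. The other 3 stayed under 2 FPKM in both groups, and they included the C4 PEP carboxylase and the C4 NADP-malic enzyme, the enzymes that fix carbon into the C4 acid and release it again. The authors ran no test on these 3; every gene they did test reached at least 2.03 FPKM in its higher group. Their rule for testing is not given, and 2399 genes of at least 1 FPKM also had no test, the highest at 47.9 FPKM.

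Elevated CO2 went with opposite changes in the 2 most abundant transcripts. Rubisco small subunit rose 2.03-fold and the carbonic anhydrase Sobic.003G234500 fell 2.72-fold. A gene is said to have changed where the q-value (a p-value adjusted over all tested genes) of the authors' deposited table is under 0.05. By that rule 1 enzyme fell, 1 rose, 3 did not pass and 3 had no test. Among all 16280 tested genes 11.5% passed, 9.04% as falls and 2.42% as rises. With 5 tested enzymes, chosen with these results known, the counts describe the enzymes and give no evidence that the pathway differs from other genes. The median log2 change of the 5 tested enzymes was 0.42, beside -0.03 for all tested genes. That median is the value of NADP-malate dehydrogenase, which did not pass, and the 5 log2 changes ran from -1.44 to 1.02. The difference between the medians was not tested. In bulk tissue, fewer cells of a type and less RNA per cell cannot be told apart.

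**Figure D1:**
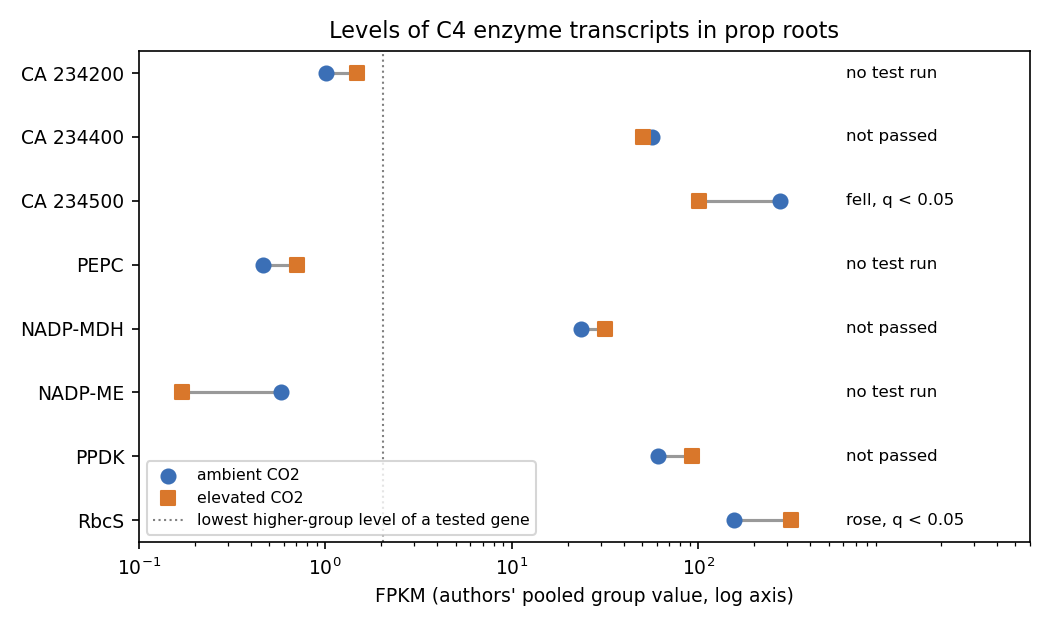
Level of each C4 enzyme transcript in FPKM (log axis), as the authors' pooled value at ambient CO2 (circles) and elevated CO2 (squares), with carbonic anhydrases (CA) labelled by the ends of their identifiers. The dotted line marks 2.03 FPKM; every gene the authors tested reached at least that level in its higher group, and the carbonic anhydrase Sobic.003G234200, PEPC (C4 PEP carboxylase) and NADP-ME (C4 NADP-malic enzyme) lie left of it; the text at the right gives the call for each gene.

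Carbonic anhydrase, the entry step, was represented by 3 genes that lie close together on chromosome 3 and differed widely in level. Sobic.003G234500 (57318983 to 57321883, positions as deposited) had 274 FPKM at ambient and 101 FPKM at elevated CO2. It was the most abundant of the 8 transcripts in ambient air, and at elevated CO2 it fell by 173 FPKM. In the authors' deposited table this fall was -1.44 on the log2 scale (p = 5e-05, q = 0.00112). That p is the smallest listed for a tested gene, and 726 genes share it.

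Sobic.003G234400 (57311403 to 57316959), the next gene of the cluster, stood at 56.5 FPKM in the ambient and 50.5 FPKM in the elevated group. Its log2 change of -0.16 in the authors' deposited table did not pass (p = 0.497, q = 0.862), and its sign turned to 0.0089 when FPKM were rescaled to equal sums and to 0.036 when centred on the most abundant genes. No direction is therefore given for it. The third gene, Sobic.003G234200 (57297986 to 57310502), was listed at 1.01 FPKM (ambient) and 1.49 FPKM (elevated), and the authors ran no test on it.

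The level of Sobic.003G234500 was 4.85-fold that of Sobic.003G234400 in ambient and 1.999-fold in elevated CO2. The difference between their changes was not tested. Summed over the 3 genes, carbonic anhydrase transcripts came to 332 FPKM at ambient CO2 against 153 FPKM at elevated CO2, a ratio of 2.17, and nearly all of that difference lay in Sobic.003G234500.

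The cluster spans 23.9 kb and holds 4 annotated genes. The fourth, Sobic.003G234300, is no carbonic anhydrase of the chosen set; it shares its deposited locus with Sobic.003G234400 and was listed at 0.0593 FPKM (ambient) and 0.164 FPKM (elevated). Between the loci of Sobic.003G234400 and Sobic.003G234500 lie 2024 bases. The sources used here do not say how the authors' counting divided reads between overlapping or similar genes, so the split between the cluster's members is uncertain. A second annotation, RefSeq (assembly Sorghum_bicolor_NCBIv3), places 1 transcribed pseudogene over both abundant carbonic anhydrase loci, while each of the other 6 enzyme loci overlaps 1 protein-coding RefSeq gene. These were matched by position, since no identifier of the table occurs in RefSeq; 68.4% of deposited loci have a RefSeq start or end within 100 bases of theirs.

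**Figure D2:**
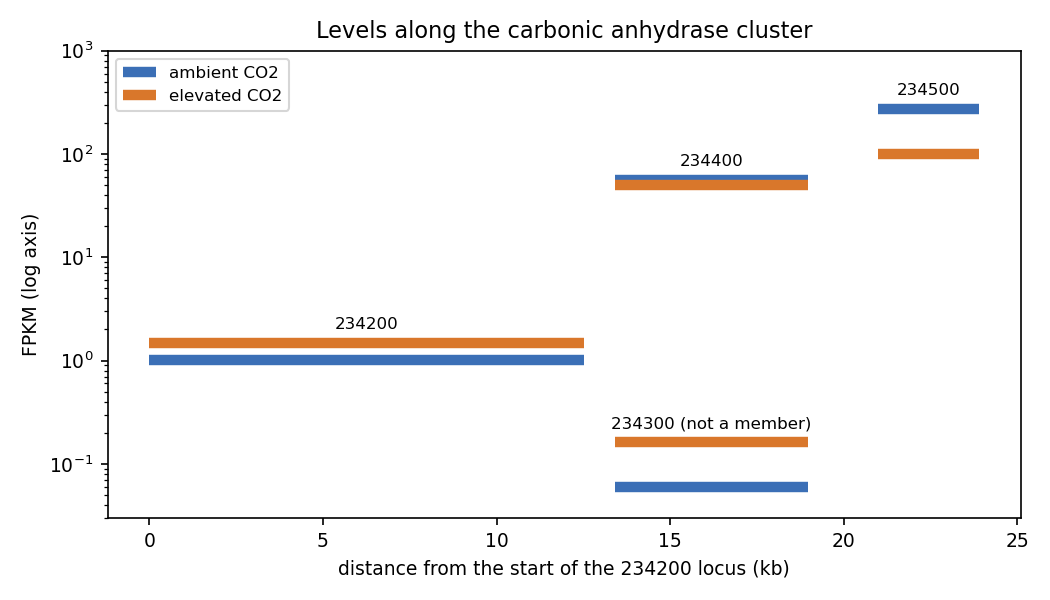
FPKM (log axis) of the 4 annotated genes along the carbonic anhydrase cluster, against distance in kb from the start of the Sobic.003G234200 locus; each bar spans a deposited locus, in ambient or elevated CO2. The gene at the right end, Sobic.003G234500, had 274 FPKM under ambient and 101 FPKM under elevated CO2, whereas the bars of Sobic.003G234400 nearly coincide.

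The C4 isoform of PEP carboxylase, the enzyme of primary fixation, had a scarce transcript. Sobic.010G160700, the C4 PEP carboxylase (chromosome 10, 47244444 to 47253575), was listed at 0.466 FPKM (ambient) and 0.704 FPKM (elevated). Of all listed genes, 40.9% lay below it at ambient CO2 and 44.9% at elevated CO2, and genes listed at 0 are among them. Both values are under 1 FPKM, and without a test the ratio of 1.51 is not read as a change. The tested genes nearest to it in log2(FPKM + 1) of both groups were Sobic.003G169200 (0.820 and 2.16 FPKM) and Sobic.008G109600 (0.423 and 2.29 FPKM), at distances of 0.945 and 0.950. Neither passed in the authors' deposited table (q = 0.158 and 0.0775), and likeness over only 2 values says little. Only tested genes were searched, and each of those reached at least 2.03 FPKM in its higher group. None could therefore match the C4 PEP carboxylase in level, and these 2 reached that limit only at elevated CO2.

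NADP-malate dehydrogenase, a chloroplast enzyme that makes malate, was expressed at moderate level. Sobic.007G166300 (chromosome 7, 60149509 to 60153216) had 23.7 FPKM under ambient and 31.6 FPKM under elevated CO2. The difference, 0.42 on the log2 scale in the authors' deposited table, did not pass (p = 0.105, q = 0.395). It was the least abundant of the 5 tested enzymes in both groups.

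The transcript of the C4 isoform of NADP-malic enzyme, which decarboxylates malate, was also scarce. Sobic.003G036200, the C4 NADP-malic enzyme (chromosome 3, 3317183 to 3322427), was listed at 0.579 FPKM (ambient) and 0.171 FPKM (elevated). The deposited log2 ratio of -1.76 is the largest in size of the 8, yet the values differ by only -0.408 FPKM (elevated minus ambient), and with a pseudocount of 1 FPKM the log2 ratio was -0.43. No test was run on it, so no change is claimed.

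Pyruvate phosphate dikinase, which regenerates the CO2 acceptor PEP and also serves carbon metabolism outside photosynthesis, was abundant. Sobic.009G132900 (chromosome 9, 48725977 to 48738853) stood at 60.7 FPKM under ambient and 92.2 FPKM under elevated CO2. The elevated value was 1.52-fold the ambient one, log2 0.60 in the authors' deposited table, and did not pass (p = 0.0224, q = 0.136). The largest p among all genes that did pass in the authors' deposited table was 0.0057. At an unadjusted p under 0.05 it would join Rubisco small subunit as the second higher enzyme, a limit that 5.83% of all tested genes met as rises and 14.8% as falls. Of the 5132 tested genes with 20 to 100 FPKM in their higher group, the class that holds this enzyme, NADP-malate dehydrogenase and Sobic.003G234400, 13.0% passed at q under 0.05. The level of pyruvate phosphate dikinase was 130 times that of the C4 PEP carboxylase in ambient and 131 times in elevated CO2. Both ratios divide by C4 PEP carboxylase values under 1 FPKM, so their likeness is not read as a result.

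Rubisco small subunit, the nuclear-encoded part of the enzyme that fixes CO2 in the Calvin cycle, changed most among the enzymes that were higher at elevated CO2. Sobic.005G042000 (chromosome 5, 3876056 to 3877378) had 156 FPKM under ambient and 316 FPKM under elevated CO2. Its rise of 1.02 on the log2 scale passed in the authors' deposited table (p = 0.00245, q = 0.0260), though not at a stricter q of 0.01. Among the 1320 tested genes that reached 100 FPKM in either group, 20.3% passed, 3.41% as rises and 16.9% as falls, and the median log2 change was -0.20. In that class the log2 change of Rubisco small subunit was the 15th highest, and that of the carbonic anhydrase Sobic.003G234500 was the 67th lowest.

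**Figure D3:**
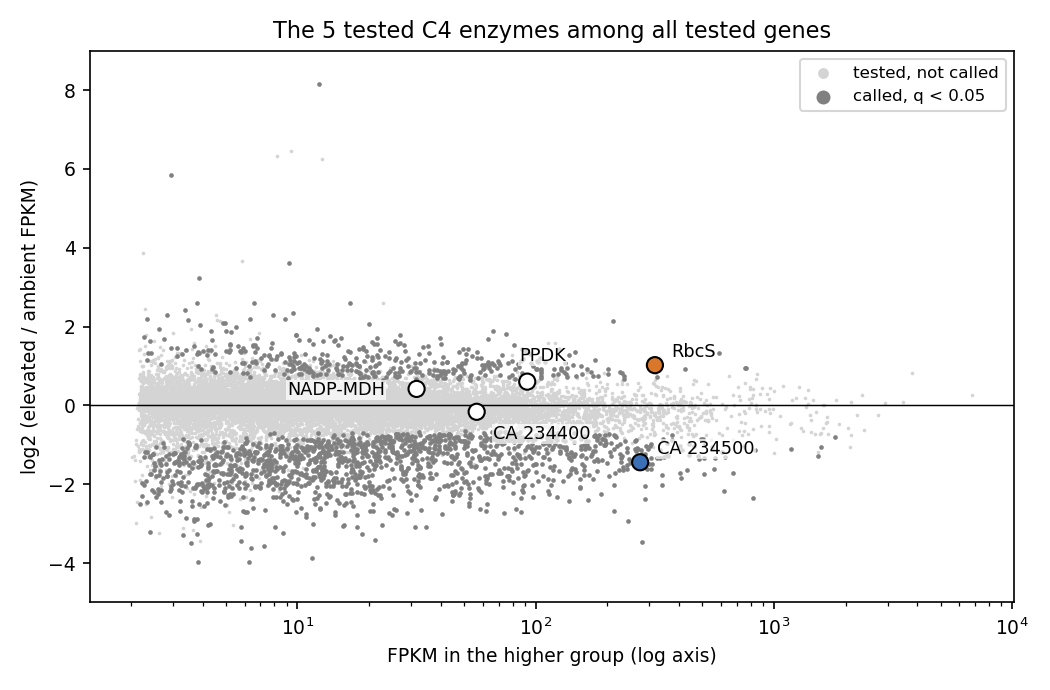
Log2 ratio of elevated over ambient FPKM against FPKM in the higher group (log axis) for genes tested by the authors with a defined ratio (light grey, not called; dark grey, q under 0.05). Large circles are the 5 tested C4 enzymes: RbcS (Rubisco small subunit, log2 1.02) and the carbonic anhydrase Sobic.003G234500 (log2 -1.44) were called, and the 3 open circles did not pass.

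Ranks within each group restate the same pooled values in a form that no scaling between the groups can move. Rubisco small subunit stood at rank 745 of 34129 genes in ambient and at rank 218 in elevated CO2. Carbonic anhydrase Sobic.003G234500 went the other way, from rank 358 to rank 1044. Pyruvate phosphate dikinase held rank 2167 in ambient and 1151 in elevated CO2, and NADP-malate dehydrogenase 5286 and 3805. Carbonic anhydrase Sobic.003G234400 kept nearly its place, at 2326 and 2338. These ranks come from pooled values and were not tested.

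In FPKM as deposited, the summed level of the 8 transcripts was nearly equal in both groups while its make-up was not. Neither was tested. The 8 values added up to 573 FPKM under ambient and 594 FPKM under elevated CO2, a ratio of 1.04 (log2 0.05). The near equality depends on the scaling between the groups. This log2 ratio was 0.22 with FPKM rescaled to equal sums and 0.25 when centred on the most abundant genes. It was 0.08 when centred on the median of tested genes and 0.16 with their upper quartile set equal. Carbonic anhydrases held 57.9% of the summed level of the 8 transcripts in ambient and 25.8% in elevated CO2. Rubisco small subunit held 27.2% in ambient and 53.3% in elevated CO2. The share of pyruvate phosphate dikinase was 10.6% in ambient and 15.5% in elevated CO2, and that of NADP-malate dehydrogenase 4.13% and 5.32%. C4 PEP carboxylase and C4 NADP-malic enzyme held 0.0813% and 0.101% in ambient, and 0.119% and 0.0287% in elevated CO2.

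The first 2 places in the order of levels changed hands. In ambient air the order ran from carbonic anhydrase Sobic.003G234500 through Rubisco small subunit, pyruvate phosphate dikinase, carbonic anhydrase Sobic.003G234400 and NADP-malate dehydrogenase to the 3 scarce transcripts. At elevated CO2 Rubisco small subunit came first and Sobic.003G234500 second, and the next 4 places were the same. The ratio of Rubisco small subunit to Sobic.003G234500 was 0.568 in ambient and 3.13 in elevated CO2. Whether neighbours in this order differ beyond the spread between libraries cannot be said from pooled values.

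**Figure D4:**
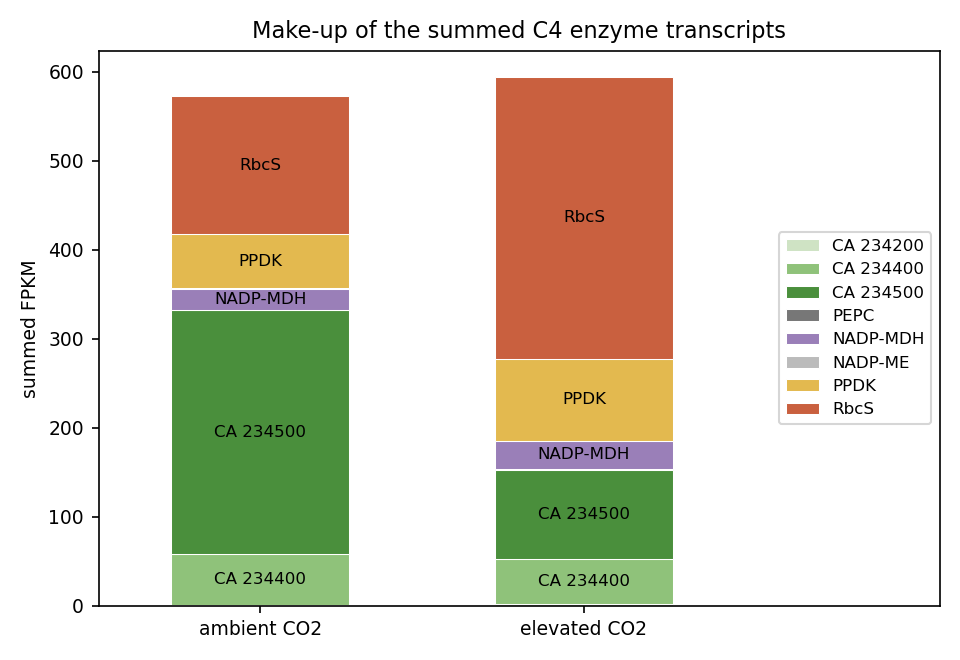
Summed FPKM of the 8 C4 enzyme transcripts (stacked bars from 0) at ambient and elevated CO2, as the authors' pooled values without error bars. The bars reach 573 and 594 FPKM; the RbcS segment is 156 FPKM (ambient) and 316 FPKM (elevated), that of the carbonic anhydrase Sobic.003G234500 is 274 and 101 FPKM, and the 3 scarce transcripts are too thin to see.

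Genes that flank the enzymes on the chromosomes were also looked up. Taking 5 annotated genes on each side gave 61 different neighbours outside the set, of which the authors tested 25. By the q-values of the authors' deposited table (Cuffdiff), 1 of these fell and 0 rose; at an unadjusted p under 0.05, 3 were lower and 1 was higher. Over all tested genes 11.5% passed by q, and 14.8% were lower and 5.83% higher at that unadjusted p, so counts this small show nothing particular to the neighbours. The gene that fell, Sobic.003G036600 near the C4 NADP-malic enzyme, had 18.2 FPKM under ambient and 10.3 FPKM under elevated CO2 (q = 0.0130 in the authors' deposited table).

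Rubisco small subunit lay among genes listed at or near 0. All 10 of its neighbours lay at or below 0.146 FPKM in both groups, 8 of them were listed at 0 in both, and none was tested. The scarce C4 NADP-malic enzyme lay among expressed genes, 7 of its 10 neighbours being tested. The gene 2 places before it, Sobic.003G036000, singled out after its values were seen, reached 153 FPKM under ambient and 112 FPKM under elevated CO2 and did not pass in the authors' deposited table (q = 0.308). The sources used here give no function for it.

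**Figure D5:**
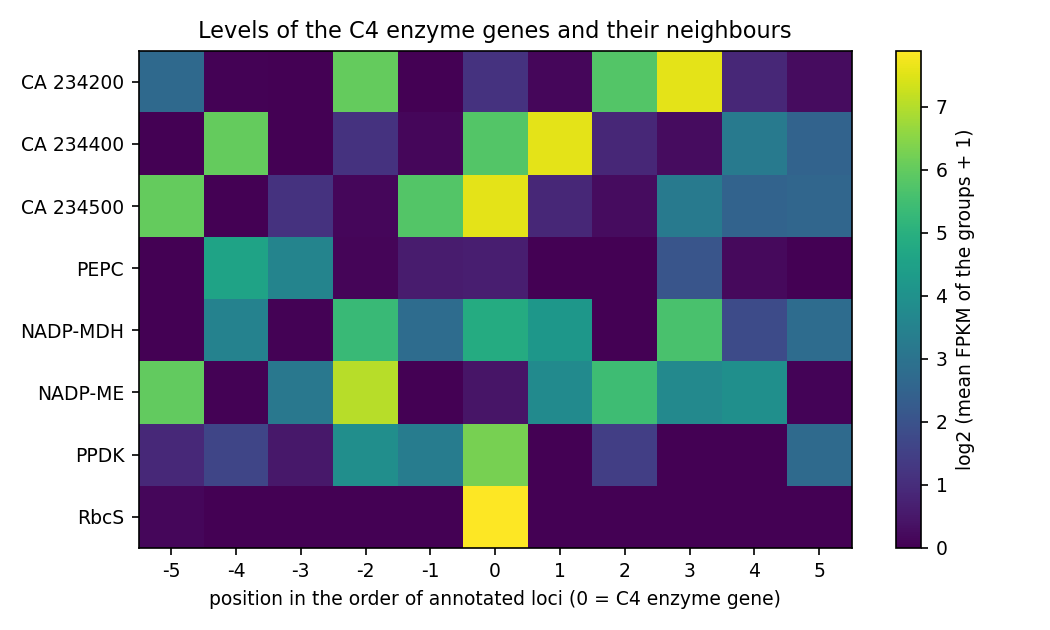
Colour gives the level, log2 of the mean FPKM of the groups plus 1, for each C4 enzyme gene (position 0) and the 5 annotated genes on either side, with 1 row per enzyme. RbcS is the only bright cell of its row, where no neighbour exceeded 0.146 FPKM; the carbonic anhydrases appear in each other's rows because they are neighbours.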

How the data were processed

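Per the labels' protocols, total RNA was made into libraries with the Illumina TruSeq Stranded mRNA kit. Tools named without settings in the submitters' processing notes are HISAT2, Trimmomatic 0.36, Cuffdiff and Cufflinks 2.2.1. Per the file headers, the authors deposited 1 FPKM per gene and group, pooled over libraries, with a log2 ratio (elevated over ambient), a p-value, a q-value and a score (the test statistic); genome build and library normalization are not given in the sources used here. Read depth is unknown, so no counting interval is given. P-values depend on how the authors modelled the variation of their libraries, which may be technical.

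The 8 rows were taken by identifier. The deposited log2 ratio differed from the FPKM by at most 2.71e-05, and the deposited q-value from a Benjamini-Hochberg adjustment over tested genes by at most 5.25e-07; the adjustment was tested on simulated data. Levels, ranks, sums, shares and neighbours were computed with Python 3.11.15, pandas 2.3.3 and numpy 2.4.6. All 8 genes are named, plus the 2 tested genes nearest to the C4 PEP carboxylase and the genes singled out in the text, which were chosen after their values were seen. Lists of further pathway genes and tissue markers by product name were left out, as neither the files nor RefSeq's gene table gave product names. The genes, lists and tests were chosen with earlier results of these data known. Alternatives were a stricter q, other sets for the adjustment, a minimum log2 change, pseudocounts of 0.1 and 1 FPKM and 4 scalings between groups. The authors' 4 subset tables, which repeat rows of the full one, were not used.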

Additional observations from a re-analysis of the deposited data

How the results depend on the processing

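The fall of Sobic.003G234500 passed under all 4 alternative call rules, with a log2 change of -1.44 to -1.24 over the pseudocounts and scalings. The rise of Rubisco small subunit had a log2 change of 1.02 to 1.22 and passed under 3 of the 4; at q under 0.01, 0 enzymes rose in the authors' table (Cuffdiff), against 2 higher at an unadjusted p under 0.05, and a stricter limit admits fewer genes. Adjusting over genes of at least 1 FPKM left out no tested gene and so tests nothing. Scalings raised every log2 change by 0.03 (median of tested genes), 0.11 (upper quartile), 0.17 (equal sums) or 0.20 (median of genes of at least 100 FPKM), and this turned the log2 change of Sobic.003G234400 to 0.0089 under equal sums and 0.036 under the last. Pyruvate phosphate dikinase ranged from 0.60 to 0.80 and NADP-malate dehydrogenase from 0.40 to 0.62. A pseudocount of 1 FPKM moved the C4 NADP-malic enzyme to -0.43, by construction at so low a level. Among genes of at least 100 FPKM 20.3% were called. Without the carbonic anhydrases, Rubisco small subunit held 64.6% of the summed FPKM in ambient CO2. Of 72 alternative values, 66 counted as the same, 4 as moved and 2 as reversed. A log2 change of a tested enzyme counted as the same where its sign held, whatever its size. Other values counted as the same where they moved by under 1.5 times. Much of this tally was fixed in advance, so it is no measure of robustness. A pseudocount cannot change the sign of a log2 change. The scalings raised every log2 change, by at most 0.20, so they could not reverse a rise. Shifts of that size also stay within the limit of 1.5 times, so they could not move an untested enzyme or a sum. Calls were not made anew under the pseudocounts or scalings. Alternatives for sums and for the ratio of Rubisco small subunit to Sobic.003G234500 were chosen after seeing the data. No paired analysis was possible because values of single libraries were not at hand, which also kept any library from being left out.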
